A study of Mus musculus with 8 samples.

Results

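Neutrophil granule genes were examined in fetal liver cells with a stem cell surface profile, as 10 genes in 2 classes taken by symbol from the 14268 rows of the authors' deposited table. The primary granule class holds Mpo, Elane, Prtn3, Ctsg and Ms4a3. The later class holds Ngp, Camp, Ltf, S100a8 and S100a9. Each symbol had 1 row, so all 10 genes were measured.

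The cells came from livers of E14.5 mouse embryos bred from Flt3-Cre and mTmG reporter parents. In that reporter a cell makes membrane Tomato until Cre recombination replaces it permanently with membrane GFP. The GFP+ fraction therefore has a history of Cre activity under Flt3 control. The Tomato+ fraction is only known to be unrecombined. Flt3 transcripts were found there too: they averaged 1617 normalized counts, against 3753 in GFP+, as listed in the authors' deposited table. Both fractions were sorted as lineage-negative, Kit+ and Sca1+, with 4 libraries of each. The sample titles also name CD150 for both fractions, without a sign. The labels do not list the lineage antibodies, and they do not say whether libraries came from separate embryos, pools or litters, so the p-values may reflect technical spread. The authors' deposited table gives the mean normalized count of each fraction and the authors' p-value, with no value per library. The values of single samples, their spread and any overlap between the fractions are therefore not shown, and depth per library is unknown. The sorted surface genes were present in both fractions. Kit averaged 4087 in GFP+ against 4950 in Tomato+, and Ly6a (Sca1) 59.5 against 70.1, as listed in the authors' deposited table. Their adjusted p-values in the authors' comparison were 0.187 and 0.872. Slamf1 (CD150) differed: it averaged 27.9 in GFP+ against 119 in Tomato+, 4.24-fold lower (adjusted p = 4.95e-08 as listed in the authors' deposited table).

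Neutrophils make their granules in sequence. Primary (azurophil) granules form in promyelocytes and are packed with myeloperoxidase and serine proteases that are already transcribed in granulocyte-monocyte progenitors. Specific granules, with lactoferrin and the cathelicidin precursor, are filled later at the myelocyte and metamyelocyte stages, and the calprotectin subunits S100a8 and S100a9 accumulate in the cytosol of maturing and mature neutrophils and also in monocytes. C/EBPα, PU.1, RUNX1 and MYB act on primary granule genes, and C/EBPε is needed for specific granules.

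Promoter sequences are shown first for 5 genes: Elane and Prtn3, which are neighbours and whose values differed, and Ngp, Ltf and S100a9, the later genes that rose. All 10 genes matched the RefSeq promoter table, and each sequence is the 250 bases before the annotated gene start in GRCm38.p6, another build than the mm9 used by the authors. Capitals mark matches on either strand to TTNNGNAA (C/EBP), GAGGAA (PU.1 and other Ets factors), TGTGGT (RUNX) or AACGG (MYB), and matches of different motifs did not overlap in the sequences printed.
Elane, chr10:79886062-79886311 (+ strand): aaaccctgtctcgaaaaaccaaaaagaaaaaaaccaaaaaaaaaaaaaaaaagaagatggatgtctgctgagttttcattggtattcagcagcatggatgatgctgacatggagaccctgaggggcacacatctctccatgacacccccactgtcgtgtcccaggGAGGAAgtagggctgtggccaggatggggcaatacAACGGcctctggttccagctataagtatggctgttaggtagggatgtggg
Prtn3, chr10:79879417-79879666 (+ strand): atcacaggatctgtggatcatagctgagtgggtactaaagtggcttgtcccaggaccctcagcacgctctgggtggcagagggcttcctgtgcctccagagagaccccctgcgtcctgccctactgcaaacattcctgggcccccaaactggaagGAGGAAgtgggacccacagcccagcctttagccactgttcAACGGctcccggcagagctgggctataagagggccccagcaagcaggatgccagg
Ngp, chr9:110419558-110419807 (+ strand): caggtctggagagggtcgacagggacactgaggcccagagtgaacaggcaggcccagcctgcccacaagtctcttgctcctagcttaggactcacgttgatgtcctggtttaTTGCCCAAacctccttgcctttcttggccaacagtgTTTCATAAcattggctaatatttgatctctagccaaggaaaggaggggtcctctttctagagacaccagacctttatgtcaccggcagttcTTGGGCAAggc
Ltf, chr9:111019042-111019291 (+ strand): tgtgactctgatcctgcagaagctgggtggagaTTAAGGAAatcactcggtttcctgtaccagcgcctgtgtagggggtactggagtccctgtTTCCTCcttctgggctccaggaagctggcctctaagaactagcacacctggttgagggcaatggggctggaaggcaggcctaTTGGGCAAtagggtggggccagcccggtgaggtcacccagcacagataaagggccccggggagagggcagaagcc
S100a9, chr3:90695722-90695971 (- strand): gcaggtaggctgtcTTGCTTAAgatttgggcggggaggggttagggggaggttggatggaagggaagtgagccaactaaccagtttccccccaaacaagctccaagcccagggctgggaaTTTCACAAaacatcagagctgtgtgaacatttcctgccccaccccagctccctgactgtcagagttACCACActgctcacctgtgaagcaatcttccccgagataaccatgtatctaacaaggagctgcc

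The C/EBP letters were found before 4 of 5 later genes and 1 of 5 primary genes, against 36.8% of 32817 promoter windows of the same length. Ngp held 3 matches, starting 138, 102 and 11 bases before the start, and Ltf and S100a9 held 2 each. Camp held none of the 4 motifs in this window. GAGGAA stood before 4 of 5 primary and 2 of 5 later genes, against 23.3% of all windows. Elane and Prtn3 had the same pair of matches at similar places: GAGGAA began 85 bases before the start of Elane and 95 before that of Prtn3, and AACGG 50 and 55 bases before. AACGG was in 4763 of the 32817 windows and before none of the later genes, and TGTGGT, in 4608 windows, was found before Ctsg and S100a9. These matches describe the letters only.

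The genes that passed the test went in opposite directions in the 2 classes. Of the 5 primary granule genes 3 fell and 0 rose in GFP+ cells at the authors' adjusted p under 0.05, where 2.64% of all rows fell. Of the 5 later genes 3 rose and 0 fell, where 4.86% of all rows rose. Among rows with an overall mean of 20 to 200, a range that holds 8 of the 10 genes and was chosen after seeing the values, 3.86% fell and 4.84% rose. The median log2 difference (GFP+ minus Tomato+) was -1.24 for the primary class and 0.72 for the later class, against 0.0095 for all rows. No test was made of the classes against each other, since the authors' deposited table holds no value per library and the genes were chosen with earlier results known. In bulk samples, fewer cells of a type and less RNA per cell cannot be told apart.

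**Figure D1:**
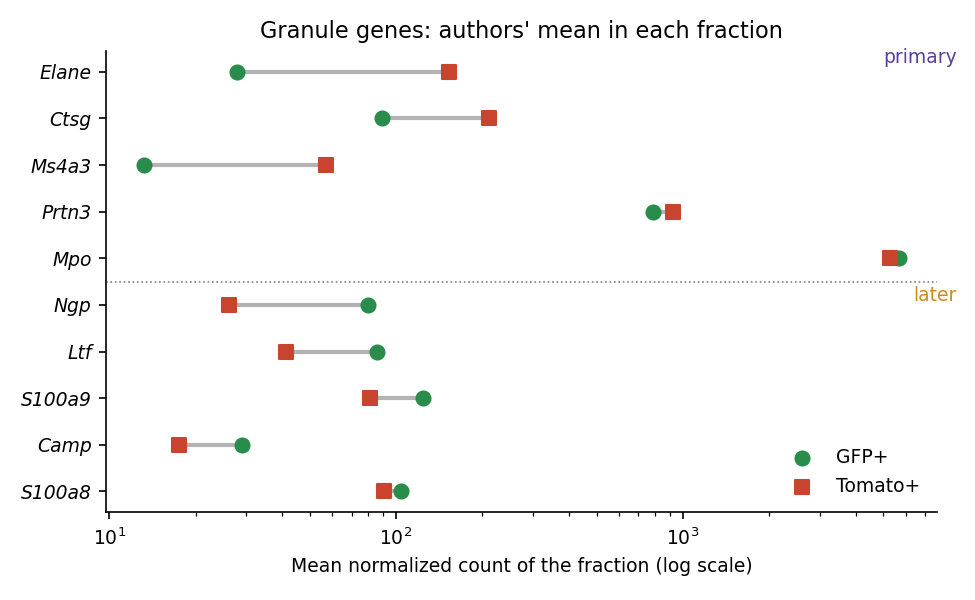
Mean normalized count (log axis) of each granule gene in the GFP+ (green circles) and Tomato+ (red squares) fraction, as the authors give it, with primary genes above the dotted line and later genes below it. Elane, Ctsg and Ms4a3 lie lower in GFP+, Prtn3 and Mpo nearly coincide, and all 5 later genes lie higher in GFP+. No error bars are drawn because no values per library were used.

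Elane, neutrophil elastase, showed the largest difference of the 10 genes. Its mean was 27.9 normalized counts in GFP+ against 152 in Tomato+, 5.47-fold lower in GFP+ (authors' adjusted p = 2.14e-09 as listed in the authors' deposited table). On the log2 scale this is -2.45, the lowest but 6 (rank 7) of the 10660 rows with an overall mean of at least 50.

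Ms4a3, a tetraspan membrane protein that marks granulocyte-monocyte progenitors, had means of 13.2 in GFP+ against 56.9 in Tomato+ as listed in the authors' deposited table, lower by 4.31-fold (adjusted p = 0.00583). Ctsg, the serine protease cathepsin G, had means of 89.4 and 212 as listed in the authors' deposited table, lower by 2.37-fold (adjusted p = 6.84e-05). With Elane these are the primary granule genes that passed.

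Prtn3, proteinase 3, is a close relative of elastase and shares substrates with it. Its means were 786 in GFP+ and 925 in Tomato+, a log2 difference of -0.23 that did not pass (adjusted p = 0.666 as listed in the authors' deposited table). Mpo, myeloperoxidase, which makes hypochlorous acid in the phagosome, had 5679 and 5275, a log2 of 0.11 with adjusted p = 1 as listed in the authors' deposited table. The Mpo value is -0.05 when both fractions are scaled to the same total, so its sign depends on the scaling. A p-value that misses the threshold does not show that these means are equal.

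Ratios within a fraction are free of the scaling between fractions. Relative to Mpo, the Elane mean was 0.491% in GFP+ against 2.89% in Tomato+, which is 5.89-fold less. The corresponding differences were 4.64-fold for Ms4a3, 2.55-fold for Ctsg and 1.27-fold for Prtn3, each lower in GFP+. The mean of Prtn3 was 28.2 times that of Elane in GFP+ and 6.06 times in Tomato+. Across the classes, the mean of Ngp was 2.87 times that of Elane in GFP+ and 0.172 times in Tomato+. Elane has the lowest and Ngp the highest log2 of the 10 genes, so every other pair changes less. These ratios of means could not be tested across libraries.

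Ngp, a neutrophil granule protein related to cathelicidins, led the later class. Its mean was 79.9 in GFP+ against 26.2 in Tomato+, 3.05-fold higher (adjusted p = 3.71e-06 as listed in the authors' deposited table). Ltf, the iron-binding lactoferrin of specific granules, had 86.0 and 41.2, 2.09-fold higher (adjusted p = 0.00325 as listed in the authors' deposited table). These 2 genes and S100a9 were the later genes that passed.

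S100a9, the larger calprotectin subunit, had means of 124 in GFP+ against 81.4 in Tomato+, 1.52-fold higher (adjusted p = 0.00331 as listed in the authors' deposited table). Its partner S100a8 had 104 and 90.9, a log2 of 0.19 that did not pass (adjusted p = 0.399 as listed in the authors' deposited table). The proteins work as a heterodimer, and the S100a9 to S100a8 ratio of means was 1.19 in GFP+ and 0.895 in Tomato+. Camp, the precursor of the antimicrobial peptide CRAMP, had 28.9 and 17.6 as listed in the authors' deposited table. Its log2 of 0.72 was larger than the 0.61 of S100a9, at a lower mean, and did not pass (adjusted p = 0.218 as listed in the authors' deposited table).

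With a Bonferroni adjustment over all rows, which 2.16% of rows pass, 3 of the 10 genes were called: Elane, Ctsg and Ngp. Ms4a3, Ltf and S100a9 lost their calls under it.

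**Figure D2:**
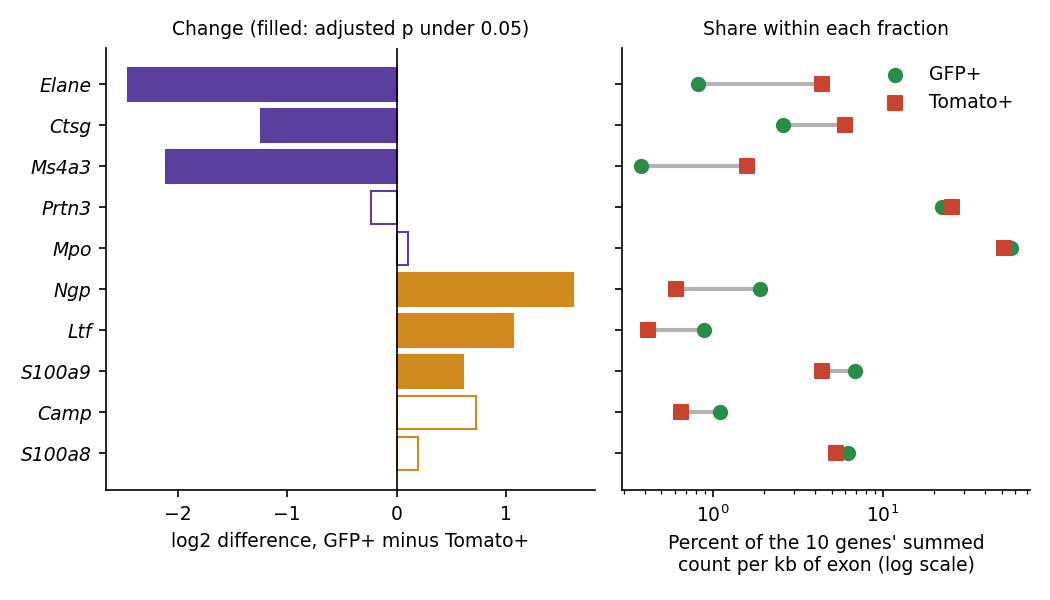
Left, log2 difference (GFP+ minus Tomato+) of each granule gene, with purple bars for primary and orange for later genes, filled where the authors' adjusted p is under 0.05. Right, each gene's percentage (log axis) of the 10 genes' summed normalized count per kb of exon within the GFP+ (green circles) and Tomato+ (red squares) fraction; Mpo and Prtn3 lie far to the right in both.

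Levels of different genes were compared per kb of exon, with exon lengths from the GENCODE M21 annotation, which may differ from the gene models the authors counted on. Mpo made up 56.9% of the 10 genes' summed normalized count per kb in GFP+ and 51.3% in Tomato+, and Prtn3 22.3% and 25.5%. Both genes came first and second in each fraction, at 1956 and 767 normalized counts per kb in GFP+ and 1816 and 902 in Tomato+. Elane was in the sixth place in Tomato+ with 155 counts per kb, next to S100a9 with 156, and in the ninth in GFP+ with 28.3. Ms4a3 had the lowest level per kb in GFP+, 13.03, and Ltf in Tomato+, 14.7. Whether neighbours in this order differ beyond their spread is not known without values per library.

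Summed per kb, the primary class came to 2853 in GFP+ and 3141 in Tomato+, 1.10-fold lower in GFP+, with Mpo as the largest part of both sums. Without Mpo the sums were 897 and 1324, 1.48-fold lower in GFP+. The later class summed to 586 and 402, 1.46 times as much in GFP+. Its sum was thus below that of the primary class in both fractions.

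**Figure D3:**
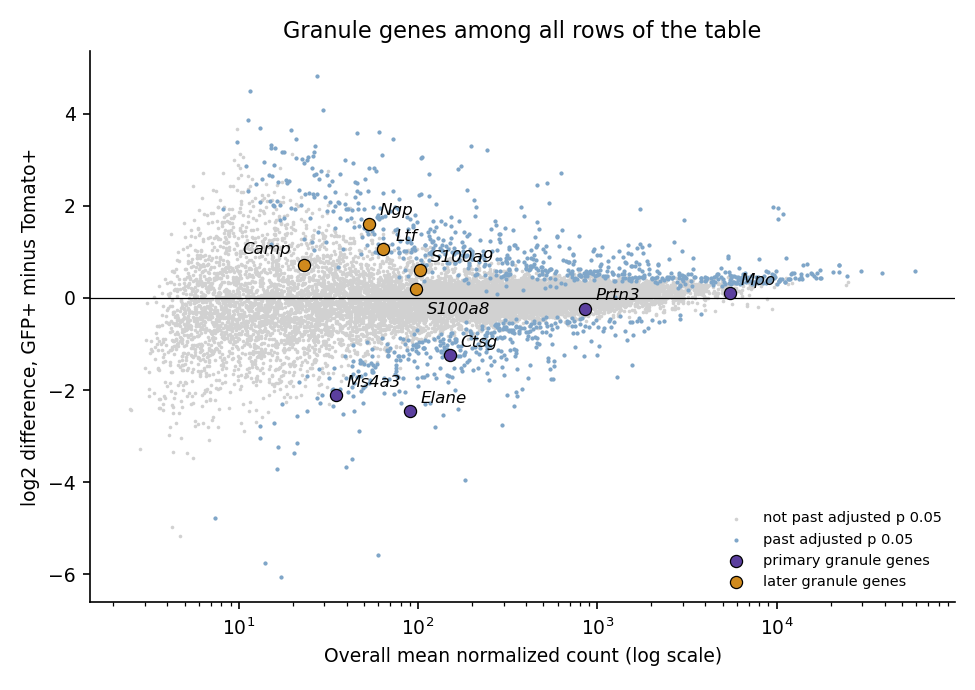
Log2 difference (GFP+ minus Tomato+) against the overall mean normalized count (log axis) for all 14268 rows, with rows past the authors' adjusted p of 0.05 in blue and the granule genes in purple (primary) and orange (later). Elane and Ms4a3 lie near the lower edge of the cloud, Ngp above most rows of similar mean, and Mpo and Prtn3 in its middle.

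By the rule for similar genes, the 3 named rows nearest to Elane in both means were Pdzk1ip1, Stab2 and Nwd1. Pdzk1ip1 had means of 27.8 in GFP+ against 153 in Tomato+ as listed in the authors' deposited table, a distance of 0.0050 on the log2 scale. Stab2 and Nwd1 lay 0.29 and 0.32 away. Nearest to Ngp were Psmb11, Phospho1 and Cybb, at 0.085, 0.10 and 0.12. Likeness over 2 group means is a coarse measure, and 2 genes with the same pair of means need not vary alike.

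Of 12 further genes of primary granules and their processing, 11 were matched, of which 1 rose and 1 fell, with a median log2 of -0.09. Over all rows 4.86% rose and 2.64% fell. Serpinb1a, an inhibitor of elastase, cathepsin G and proteinase 3, rose 1.66-fold, with means of 909 in GFP+ against 548 in Tomato+ (adjusted p = 0.00286 as listed in the authors' deposited table). Cd63, a tetraspanin of azurophil granule membranes and lysosomes, fell 1.67-fold, with 309 and 515 (adjusted p = 0.00339 as listed in the authors' deposited table). The lysosomal glucuronidase Gusb had a log2 of 0.38 and the granule proteoglycan Srgn -0.14 as listed in the authors' deposited table, and neither passed. Several genes of this list are lysosomal or general and are used by many cell types. Lyz1 and Lyz2 are near-identical copies whose reads may have been split, and their values are uncertain.

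Of 23 further genes of specific and gelatinase granules or mature neutrophils, 14 were matched. Of these 1 rose and 0 fell, where 4.86% of all rows rose and 2.64% fell. Their median log2 was 0.27, with 10 values above 0 and 4 below. Fcnb, Pglyrp1, Hp and Stfa1 are named as the 4 lower in GFP+, a choice made with the values known. They stood at -1.13, -0.79, -0.69 and -0.35 on the log2 scale, and none of them passed. Chil3, a chitinase-like lectin listed under its older symbol Chi3l3, had 3.40 in Tomato+ cells and rose to 13.02 (3.83-fold, adjusted p = 0.0215 as listed in the authors' deposited table). Slc11a1, a phagosomal metal transporter, had means of 36.5 in GFP+ against 8.02 in Tomato+, Lcn2, the siderophore-binding lipocalin, 19.1 and 8.24, and Mmp9, gelatinase B, 12.5 and 2.50 as listed in the authors' deposited table. These 3 did not pass, with adjusted p-values of 0.059, 0.0869 and 0.106 as listed in the authors' deposited table. Chil3, Slc11a1 and Mmp9 are also made by macrophages, and the means of this list are low.

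**Figure D4:**
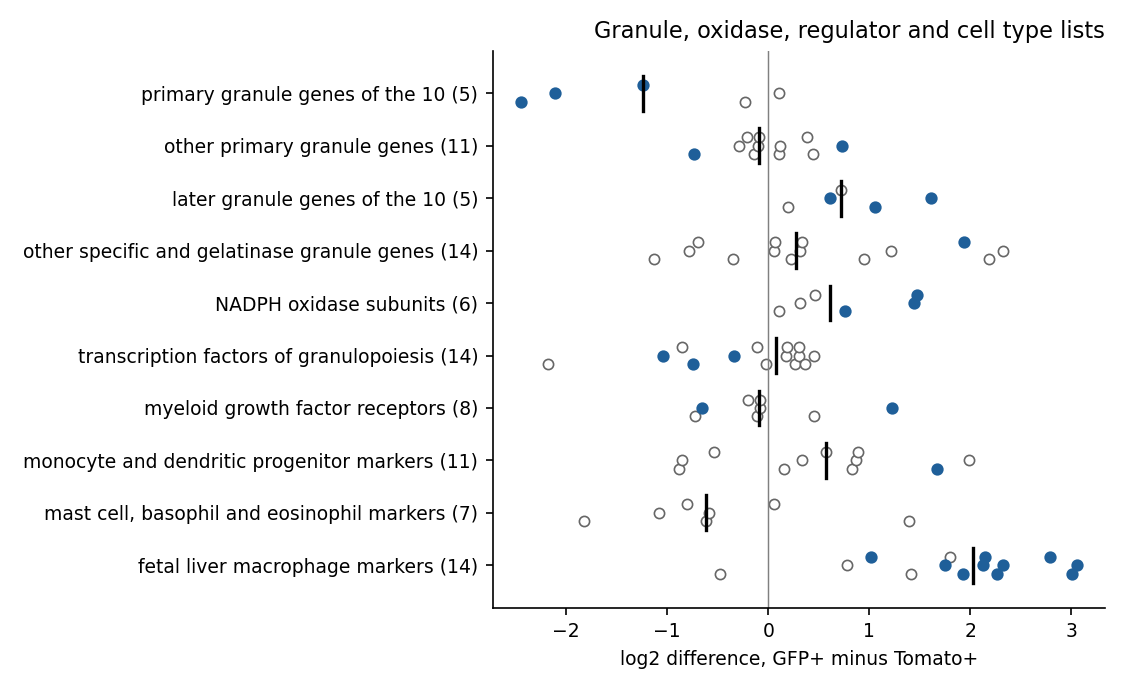
Log2 difference (GFP+ minus Tomato+) of the matched genes of 10 lists, 1 point per gene, filled where the authors' adjusted p is under 0.05, with the list's median as a black line and the number of matched genes in parentheses. Points are offset vertically for visibility only. The primary granule genes of the 10 have the lowest median of the lists drawn, -1.24, and the fetal liver macrophage markers the highest, 2.03. The erythroid, hepatoblast, B lymphoid and sort and stem cell lists are not drawn, with medians of 1.94, 2.47, 3.08 and -0.33.

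All 6 subunits of the phagocyte NADPH oxidase, which makes superoxide for the same phagosomes, had a log2 above 0. Of these 3 rose and 0 fell, where 4.86% of all rows rose and 2.64% fell. Their median log2 was 0.62, against 0.0095 for all rows. Ncf1, the p47phox organizer, had means of 936 in GFP+ against 337 in Tomato+, 2.78-fold higher (adjusted p = 2.42e-14 as listed in the authors' deposited table). Cybb, the gp91phox catalytic subunit of specific granule and plasma membranes, rose 2.72-fold (76.3 and 28.1) and Ncf4, p40phox, 1.70-fold (203 and 120) as listed in the authors' deposited table. Cyba, the p22phox partner of Cybb, had a log2 of 0.47 and did not pass (adjusted p = 0.0791 as listed in the authors' deposited table). These subunits are also made by B cells and macrophages.

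Of 14 transcription factors of granulocyte development 3 fell and 0 rose, where 2.64% of all rows fell and 4.86% rose. The median log2 of these factors was 0.08. Gata2, a factor of stem cells and early progenitors, fell 2.06-fold (665 in GFP+ and 1371 in Tomato+) and Gfi1, a repressor needed for neutrophil development, 1.68-fold (386 and 650), with adjusted p-values of 5.83e-13 and 0.000766 as listed in the authors' deposited table. Myb fell 1.26-fold (3338 and 4222, adjusted p = 0.0485 as listed in the authors' deposited table). Spi1, which encodes PU.1 and was listed as Sfpi1, had a log2 of 0.37 and did not pass (adjusted p = 0.115 as listed in the authors' deposited table). Cebpa and Cebpe, named for their part in this pathway after their values were seen, had means of 289 and 4.94 in GFP+ and 211 and 22.3 in Tomato+, and neither passed (adjusted p = 0.212 and 0.271 as listed in the authors' deposited table).

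Among 8 growth factor receptors, with a median log2 of -0.09, 1 rose, where 4.86% of all rows rose. Csf1r, the M-CSF receptor of monocytes and macrophages, rose 2.34-fold (353 in GFP+ and 150 in Tomato+, adjusted p = 3.87e-06 as listed in the authors' deposited table). Csf2rb2 and Il6ra had log2 values of -0.73 and 0.45 as listed in the authors' deposited table and did not pass. Csf3r, the G-CSF receptor of the neutrophil lineage, named after its value was seen, had 833 and 879 (adjusted p = 0.943 as listed in the authors' deposited table). Csf2rb and Csf2rb2 are near-identical copies, so the split of their reads is uncertain.

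Markers of some other cell types also rose in GFP+, where 4.86% of all rows rose and 2.64% fell. Of 15 fetal liver macrophage markers 14 were matched, of which 10 rose and 0 fell, and their summed mean was 1843 in GFP+ against 558 in Tomato+. Cd5l, Marco and Hmox1, the markers with the smallest p-values, rose 6.93-fold, 8.31-fold and 4.36-fold as listed in the authors' deposited table. Mrc1, named after its value was seen, had a log2 of -0.48 and did not pass. Of 12 monocyte and dendritic progenitor markers 11 were matched and 1 rose, Mpeg1 (3.19-fold as listed in the authors' deposited table), and the list summed to 760 and 544. F13a1 and Ly86 had log2 values of -0.86 and 1.99 as listed in the authors' deposited table and did not pass. No matched marker of these lists was at 0 in either fraction, and the lowest means were 10.7 in GFP+ and 5.01 in Tomato+. Cd163 and Cd14 were not matched. The part of these cells in the values of the later granule genes was not tested.

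Erythroid markers rose in 9 of 10 matched cases (summed means 38463 and 11835), hepatoblast markers in 13 of 14 (4014 and 2030) and B lymphoid markers in 5 of 10 (951 and 279), with 0 falling. Over all rows 4.86% rose and 2.64% fell. Klf1 and Dlk1, the erythroid and the hepatoblast marker that did not pass, had log2 values of -0.46 and -0.29. Both were named after their values were seen. Hba-a2, Hbb-b1 and Slc4a1 rose 3.85-fold, 3.26-fold and 3.83-fold, Alb, Afp and Ahsg 5.45-fold, 5.62-fold and 6.02-fold, and Rag1, Ebf1 and Igll1 9.81-fold, 8.30-fold and 28.2-fold as listed in the authors' deposited table. Globin genes have near-identical copies, so their values are uncertain. The part of these cells in the granule gene values was likewise not tested. Of 13 mast cell, basophil and eosinophil markers 7 were matched and 0 passed the authors' comparison (their tool list names DESeq), with 2 at an unadjusted p under 0.05, and the list summed to 198 in GFP+ and 274 in Tomato+. Hdc, Cpa3 and Prg2 had log2 values of -1.08, -0.59 and 0.06 as listed in the authors' deposited table. Of 12 sort and stem cell markers 2 rose and 6 fell. Flt3 was 2.32-fold higher and Mecom and Tek 2.90-fold and 3.21-fold lower in GFP+ as listed in the authors' deposited table. Slamf1 was also among the 6 that fell.

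Several granule genes lie side by side in the genome. In RefSeq's GRCm38.p6 the starts of Prtn3 and Elane are 6645 bases apart on chromosome 10 on the same strand, with no protein-coding gene between them, and those of S100a8 and S100a9 26650 bases apart on chromosome 3 on opposite strands. Camp, Ngp and Ltf lie on chromosome 9, with 570352 bases between the starts of Camp and Ngp and 599484 between those of Ngp and Ltf. In both adjacent pairs 1 gene passed and the other did not: Elane fell and S100a9 rose. The difference within a pair was not tested.

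Genes near the granule genes were looked at by position. Genes without a matched row were passed over, so not all were adjacent: Plxnb1 was 19 genes from Camp and Cenpj 10 from Ctsg. Of 30 nearest measured protein-coding neighbours, up to 2 on each side of each locus, 1 rose and 0 fell, near the 4.86% and 2.64% of all rows, and their log2 values ran from -1.82 to 1.52 with a median of 0.03. Palm, near Prtn3, rose 1.67-fold (adjusted p = 0.0255 as listed in the authors' deposited table). Named after their values were seen, Mcpt8, a basophil protease beside Ctsg, had a log2 of -1.82 at means of 2.22 and 7.86, and Ms4a6b, near Ms4a3, -0.96 at 38.3 and 74.6, and neither passed as listed in the authors' deposited table. On the side of S100a9 away from S100a8 no measured gene was found within the 29 genes searched.

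**Figure D5:**
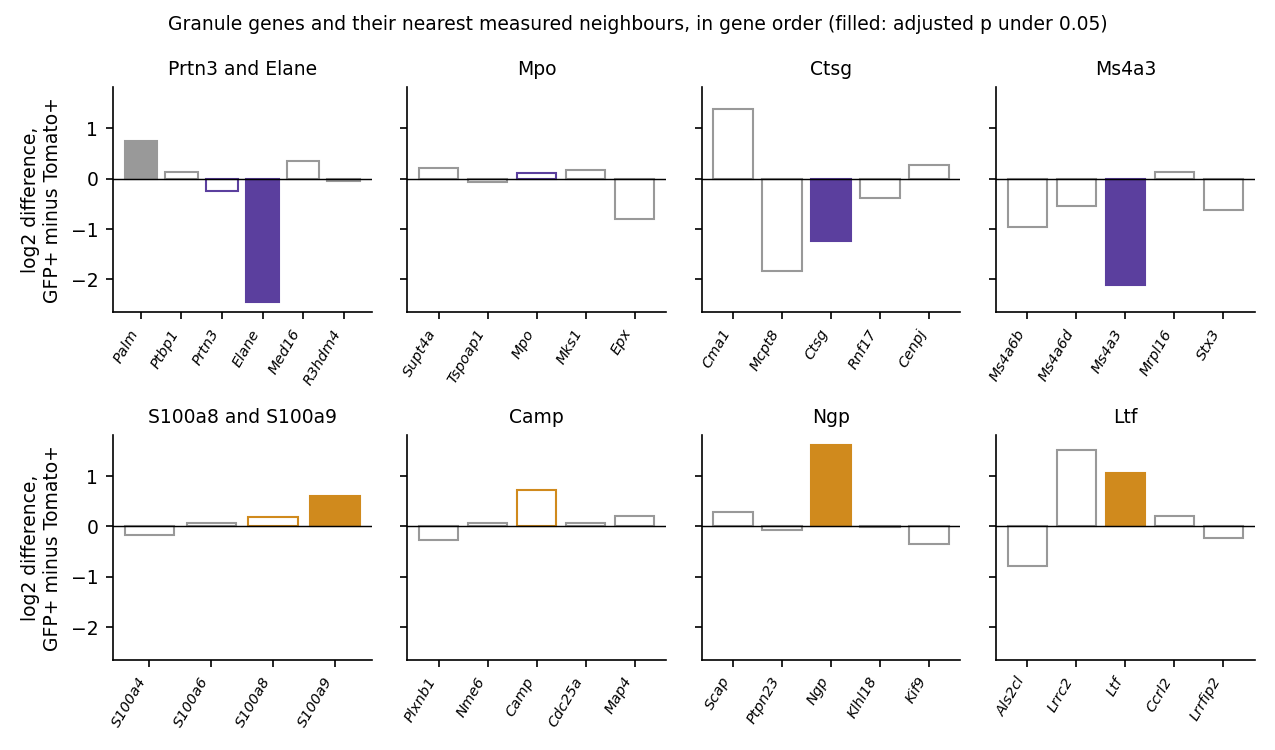
Log2 difference (GFP+ minus Tomato+) of the granule genes (purple for primary, orange for later) and their nearest measured protein-coding neighbours (grey), in gene order along each chromosome and not to distance. Filled bars passed the authors' adjusted p of 0.05. Elane is filled and Prtn3 open, and Ngp is filled between Ptpn23 and Klhl18, both open.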

How the data were processed

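RNA from 4 GFP+ and 4 Tomato+ libraries of sorted fetal liver cells was compared. The submitters' processing notes name build mm9 and the tools DESeq, bedtools, TopHat, TopHat2 2.0.11 and Bowtie2 2.2.1, without roles or settings. For each row the authors deposited, per the file headers, a signal (the mean normalized count of all libraries and of each fraction), a ratio (fold change), the log2 of that ratio and a p-value, raw and adjusted. The values were read as deposited, with 1 repeated header line dropped and the sign turned so that positive means higher in GFP+. The authors' adjusted p equalled a Benjamini-Hochberg adjustment over all 14268 rows within 5.3e-08. No value per library was used, so no test across libraries was run.

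Where a symbol had several rows, that of highest mean was used. A gene was called at an adjusted p under 0.05. The members and lists were chosen with earlier results of these data known. Of 162 listed genes in 14 lists, 141 matched a row, 4 of them by an older symbol or synonym. Named genes were all 10 granule genes, the 4 (granule, oxidase, factor and receptor lists) or 3 (cell type lists) smallest p-values of each list, and the 3 rows nearest to the leading gene of each class in log2 of both means. Genes named outside this rule are marked as such, apart from Kit, Ly6a, Slamf1 and the neighbours. 1 gene that the rule names is not reported here. Adjustment and counting were tested on simulated data. Python 3.11.15, pandas 2.3.3, numpy 2.4.6 and matplotlib 3.10.9 were used.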

Additional observations from a re-analysis of the deposited data

How the results depend on the processing

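No paired analysis was possible because only the mean of each fraction was at hand. Likewise the replicate block, leaving out single replicates, and other size factors or DESeq2 were not run. Over the whole table the 1069 calls became 699 below an adjusted p of 0.01, 492 when a log2 change of 1 was required and 308 with Bonferroni, each by a stricter criterion. Of the 10 granule genes 6 were called, 3 with Bonferroni; of the later genes 3 and 1. The same 6 genes were called at thresholds of 0.1 and 0.01 and with 1 row per symbol. S100a9 lost its call with the minimum log2 change of 1, and Ms4a3 and Camp, at means below 50, were left out with the minimum mean of 50. The primary median of -1.24 became -1.40 with both fractions scaled to the same total (a shift of 0.16), -1.27 with centring on the median row, -1.20 with a pseudocount of 5 and -0.74 among genes with a mean of at least 50. The later median of 0.72 became 0.56, 0.69, 0.59 and 0.83 in the same order. No called granule gene changed sign under these alternatives; Mpo, which was not called, turned from 0.11 to -0.05 with scaling to the same total. Low means limit what can be said of Camp, Ms4a3, Chil3, Mmp9 and Cebpe.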

Other observations

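Relatives of the granule genes were grouped by symbol after their values were seen. Over all rows 4.86% rose and 2.64% fell. Of 9 S100a genes measured 1 rose, S100a9, and 1 fell, S100a16, a calcium-binding protein with means of 9.48 in GFP+ against 33.6 in Tomato+ (3.55-fold lower, adjusted p = 0.00738 as listed in the authors' deposited table). S100a10 and S100a11, made by many cell types, had log2 values of 0.13 and -0.06 as listed in the authors' deposited table. Of 4 Ms4a genes 1 fell, Ms4a3, and the log2 values of Ms4a6b and Ms4a6c were -0.96 and 0.87 as listed in the authors' deposited table. Of 8 Serpinb genes 1 rose, Serpinb1a. Of 3 stefin (Stfa) genes 0 passed the authors' comparison, for which their tool list names DESeq, and 2 had an unadjusted p under 0.05. Stfa1, the most abundant of the 3, averaged 61.9 in GFP+ against 78.8 in Tomato+, a log2 of -0.35 (adjusted p = 1 as listed in the authors' deposited table). The stefins Stfa3 and Stfa2l1, cysteine protease inhibitors of maturing neutrophils, had means of 16.2 and 13.2 in GFP+ and 4.202 and 3.804 in Tomato+ as listed in the authors' deposited table, with log2 values of 1.94 and 1.80, and neither passed (adjusted p = 0.252 and 0.306). Stefin genes are near-identical copies, so their counts are uncertain.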
